A study of Mus musculus with 10 samples.

Results

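The 10 circadian clock genes described here are Arntl, Clock, Npas2, Per1, Per2, Per3, Cry1, Nr1d1, Nr1d2 and Dbp, taken by symbol from the 24454 genes counted in mouse back skin. All 10 passed the filter on low counts and were among the 15543 genes tested. The skin came from C57BL/6 mice, 5 wild type (WT) and 5 Zfp36ΔARE (genotype label TTP delta ARE), with 1 library each. Zfp36ΔARE mice carry a knock-in at the endogenous Zfp36 locus that removes an instability element from the 3′-UTR of the gene for tristetraprolin (TTP), an RNA-binding protein that shortens the life of AU-rich mRNAs, and they carry it in every cell rather than in one cell type. By the study's methods, controls were littermates and mice were 7 weeks old at the start. Both groups received the same treatment, 400 nmol of the mutagen DMBA once on the shaved back, then 10 nmol of the phorbol ester TPA 2 times a week for 20 weeks, and the skin taken was treated, full-thickness and without tumor. Neither the time of day at which skin was taken, nor the interval from the last TPA application, nor the sex of the mice is given in the sources used here.

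The clock of a mammalian cell is a loop of transcription and repression that takes about a day to complete. CLOCK or its relative NPAS2 pairs with BMAL1, the product of Arntl, and the pair binds E-box sequences and switches on the Per, Cry, Nr1d and Dbp genes. PER and CRY proteins then return to the nucleus and stop the pair, while the nuclear receptors REV-ERBα and REV-ERBβ, encoded by Nr1d1 and Nr1d2, repress Arntl, Npas2 and Cry1 through their own response elements. In mouse tissues the Arntl and Dbp mRNAs therefore peak at opposite times of day, and skin, including its epidermis and hair follicles, holds such a clock. Because the level of these mRNAs depends on the hour of sampling, their pattern was compared between the groups and between single libraries.

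Of the 10 genes, 6 were lower in Zfp36ΔARE skin at an adjusted p below 0.05 (edgeR, quasi-likelihood), against 19.1% of all genes tested, and 2 were higher, against 15.3%. Those lower were Clock, Npas2, Per1, Nr1d1, Nr1d2 and Dbp, and those higher were Per2 and Cry1. Arntl and Per3 did not pass. None of the 10 passed both that threshold and a 2-fold change, which 8.31% of all genes did, and the count over 2-fold was also 0 with DESeq2 and limma-voom. At an unadjusted p below 0.05 from the same edgeR fit the number was 9, against 47.1% of all genes. The median log2 fold change of the 10 was -0.43, against 0.0076 over all genes tested. Exact two-sided permutation tests over the 10 libraries, 1 for each gene and not adjusted for their number, gave p = 0.00794 for Clock, Npas2, Per1, Cry1 and Nr1d2, the smallest p that 5 against 5 allows. The same exact test gave 0.0159 for Per2 and Nr1d1, 0.0317 for Arntl, 0.0397 for Dbp and 0.103 for Per3. In 4 genes every Zfp36ΔARE library lay below every WT library (11.9% of all genes), and in 1 gene every one lay above (11.2%).

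**Figure D1:**
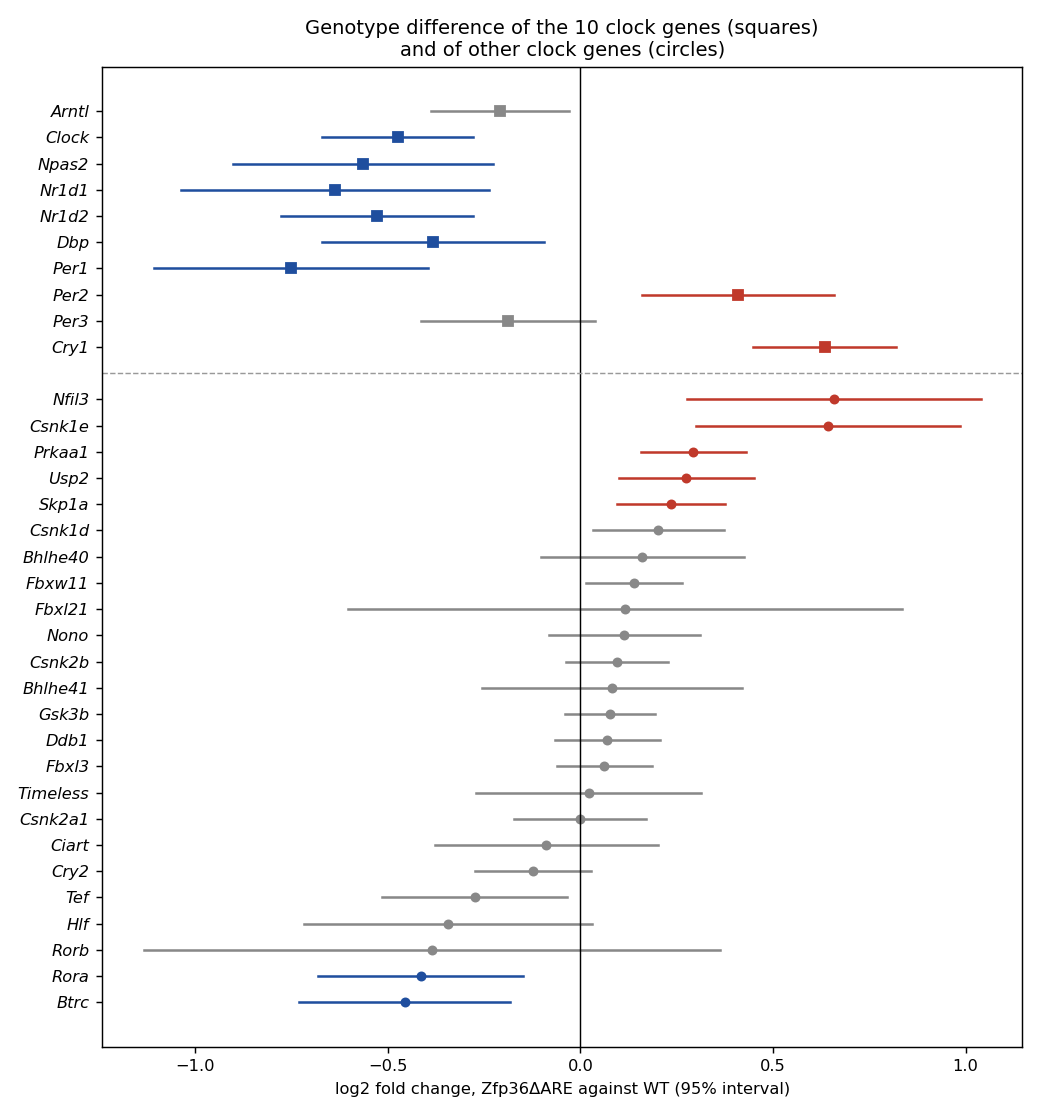
Log2 fold change of Zfp36ΔARE against WT skin (x axis) with its 95% interval for the 10 clock genes (squares, above the dashed line) and the other clock genes reported here (circles, below it). Blue marks genes lower and red genes higher at an adjusted p below 0.05, and grey marks the rest. Of the 10 genes, 6 are blue, and Per2 and Cry1 are red.

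Several facts of the libraries touch every result below. Total counts ran from 19595035 to 36419573 per library and overlapped between the groups. As a check of the labels, Zfp36 itself had 1824 to 2496 normalized counts in WT and 4196 to 6134 in Zfp36ΔARE libraries. Summed counts of 4 Y-linked genes were 3349 to 4262 in Zfp36ΔARE replicates 2 to 5 and at most 1 in the other 6 libraries, so Zfp36ΔARE replicate 1 was the single library of its group without them, and sex and genotype cannot be told apart. Keratinocyte and dermal markers (Krt5, Krt14, Krt1, Krt10, Lor, Col1a1, Col3a1) were present in every library, at 575 CPM or more each, with sums of 23175 to 28029 CPM in WT and 14910.3 to 29458 CPM in Zfp36ΔARE libraries, and 0 of 7 were called. The skin score was 10.7 to 11.004 in Zfp36ΔARE replicates 1 to 3 and 11.5 to 11.8 in the other 7 libraries. Among other cell types, 12 of 12 macrophage, 9 of 10 skeletal muscle and 6 of 8 adipocyte markers were lower in Zfp36ΔARE skin, 5 of 12 hair shaft markers were higher and 0 of 4 T cell markers were called, none of them at 0 in any library. Summed macrophage markers ran from 996 to 1995 CPM in WT and from 417 to 670 CPM in Zfp36ΔARE libraries, skeletal muscle markers from 8985 to 45504 and from 5050 to 11527 CPM, adipocyte markers from 1765 to 3645 and from 1209 to 1604 CPM, hair shaft markers from 112 to 3862 and from 6040 to 17166 CPM, and T cell markers from 11.7 to 22.9 and from 10.6 to 16.6 CPM. WT replicates 1 and 3 had the lowest hair shaft scores, 5.38 and 2.86 in mean log2(CPM + 1), against 7.40 to 9.70 in the other 8 libraries. The part of these differences in the results was not tested beyond the values given here, and in bulk tissue fewer cells of a type cannot be told apart from less RNA per cell.

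Per kilobase of the gene length in the deposited table, Per1 and Nr1d1 had the highest levels of the 10 genes in both groups. In WT skin Per1 was at 30.7 ± 4.80 RPKM and Nr1d1 at 28.7 ± 8.88 RPKM (SD, n = 5), which overlapped. Arntl followed at 14.95 ± 1.37, then Nr1d2 at 12.9 ± 2.06 and Dbp at 10.9 ± 1.55 RPKM, and the intervals of 1 SD of Arntl and Nr1d2, and of Nr1d2 and Dbp, overlapped. Per3 (5.77 ± 0.383), Clock (5.29 ± 0.544) and Cry1 (4.66 ± 0.523 RPKM) came next, with the 1 SD intervals of neighbours overlapping, and Per2 (2.02 ± 0.257) and Npas2 (1.39 ± 0.319 RPKM) were lowest. In Zfp36ΔARE skin the order was Nr1d1 (18.5 ± 2.43), Per1 (18.2 ± 4.18), Arntl (12.9 ± 1.14), Nr1d2 (8.95 ± 0.971), Dbp (8.39 ± 1.36) and then Cry1 (7.23 ± 0.269), Per3 (5.07 ± 0.793), Clock (3.81 ± 0.361), Per2 (2.67 ± 0.314) and Npas2 (0.940 ± 0.0440 RPKM). Of these, Nr1d1 and Per1, Nr1d2 and Dbp, and Dbp and Cry1 had overlapping 1 SD intervals. By mean level Cry1 thus stood below Per3 and Clock in WT skin and above both in Zfp36ΔARE skin.

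The promoters of the genes show which clock elements lie close to their start sites. RefSeq windows of 300 bases, most of them upstream of a start site on GRCm38.p6, were found for 9 of the 10 genes. The 4 windows printed here were chosen because they hold an exact match and belong to genes that differed in opposite directions or did not pass the test. Capitals mark the matches, on either strand: the E-box CACGTG in Cry1 and Per1, its variant CACGTT (as AACGTG) in Cry1, TAGGTCA, the half-site through which REV-ERB proteins act, in Arntl, and the D-box TTATGTAA, which DBP and NFIL3 bind, at 2 places in Per3.
Cry1, chr10:85185005-85185304, minus strand: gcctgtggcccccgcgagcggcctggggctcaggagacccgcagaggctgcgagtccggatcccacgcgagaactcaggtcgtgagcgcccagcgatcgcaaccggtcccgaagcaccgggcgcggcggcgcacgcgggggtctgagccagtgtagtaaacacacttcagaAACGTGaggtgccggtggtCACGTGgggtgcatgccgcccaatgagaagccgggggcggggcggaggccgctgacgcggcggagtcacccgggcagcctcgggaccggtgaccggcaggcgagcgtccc
Per1, chr11:69098699-69098998, plus strand: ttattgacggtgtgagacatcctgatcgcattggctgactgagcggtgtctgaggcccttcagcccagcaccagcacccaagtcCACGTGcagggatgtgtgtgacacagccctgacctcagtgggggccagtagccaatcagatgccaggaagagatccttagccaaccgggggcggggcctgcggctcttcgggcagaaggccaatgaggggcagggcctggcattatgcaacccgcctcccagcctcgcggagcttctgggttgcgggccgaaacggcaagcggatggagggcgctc
Arntl, chr7:113207261-113207560, plus strand: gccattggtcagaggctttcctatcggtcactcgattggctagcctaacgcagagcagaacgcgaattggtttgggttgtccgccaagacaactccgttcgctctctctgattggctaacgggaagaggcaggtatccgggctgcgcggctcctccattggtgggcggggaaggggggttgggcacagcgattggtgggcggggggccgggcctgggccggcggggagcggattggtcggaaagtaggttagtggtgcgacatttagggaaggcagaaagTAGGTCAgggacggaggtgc
Per3, chr4:151044616-151044915, minus strand: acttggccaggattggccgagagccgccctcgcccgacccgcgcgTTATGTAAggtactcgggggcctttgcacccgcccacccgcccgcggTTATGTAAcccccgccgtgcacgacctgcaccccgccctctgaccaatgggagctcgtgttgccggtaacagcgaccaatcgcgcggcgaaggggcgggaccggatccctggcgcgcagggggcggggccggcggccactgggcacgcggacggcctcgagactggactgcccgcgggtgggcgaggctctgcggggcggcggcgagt
The E-box began 60 bases before the start site in Cry1 and 166 bases before it in Per1, the variant 79 bases before it in Cry1, TAGGTCA at base 31 after it in Arntl, and the D-boxes 205 and 158 bases before it in Per3. Among all 32851 windows, 7.15% held CACGTG, 4.68% CACGTT, 2.61% TAGGTCA and 0.938% TTATGTAA, and a window of Nr1d1 also held CACGTT. The cAMP response element TGACGTCA, in 1.79% of windows, had no match in those of the 9 genes. Cry1 and Per1, which both hold the E-box in these windows, differed between the genotypes in opposite directions, as their counts show further on.

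The activators come first. Arntl (chromosome 7, 113178471 to 113314126, plus strand, GRCm38) encodes BMAL1, the partner without which the loop does not run. Its normalized counts (counts scaled by library size and composition) in WT replicates 1 to 5 were 1117, 1158, 1339.8, 1059.8 and 1126, and in Zfp36ΔARE replicates 1 to 5 they were 1099, 934, 1082, 1007 and 897. Of the Zfp36ΔARE libraries 3, replicates 2, 4 and 5, lay under the WT range and the other 2 inside it. The means were 1160 ± 107 and 1004 ± 88.7 (SD, n = 5), with a log2 fold change of -0.21 ± 0.081 (SE), a 95% interval of -0.39 to -0.029 and an edgeR adjusted p of 0.068, so Arntl did not pass the test. It passed in 1 of the 22 other settings, upper-quartile scaling (adjusted p = 0.047). An antisense transcript, Gm45355, overlaps 33 bases of its exons.

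Clock (chromosome 5, 76209868 to 76305603, minus strand) encodes the usual partner of BMAL1. Its normalized counts were 1399, 1461, 1598, 1338 and 1210.3 in WT and 1061, 1019, 843, 1036 and 1084 in Zfp36ΔARE replicates 1 to 5. The groups did not overlap, and Zfp36ΔARE replicate 3 was the lowest library. The mean fell from 1401 ± 144 to 1009 ± 95.7, a log2 fold change of -0.47 ± 0.089 (SE; edgeR adjusted p = 0.0070).

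Npas2 (chromosome 1, 39193702 to 39363240, plus strand) encodes a relative of CLOCK that can take its place. WT replicates 1 to 5 had 154, 155, 214, 124 and 129 normalized counts, and Zfp36ΔARE replicates had 102, 103, 104, 101 and 113. The Zfp36ΔARE libraries were tightly grouped and all below WT, whose replicate 3 stood highest. Npas2 fell by 0.56 ± 0.15 on the log2 scale (SE; 155 ± 35.5 against 105 ± 4.90, edgeR adjusted p = 0.020). Without WT replicates 1 and 3 the adjusted p was 0.069 and the log2 fold change -0.38.

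**Figure D2:**
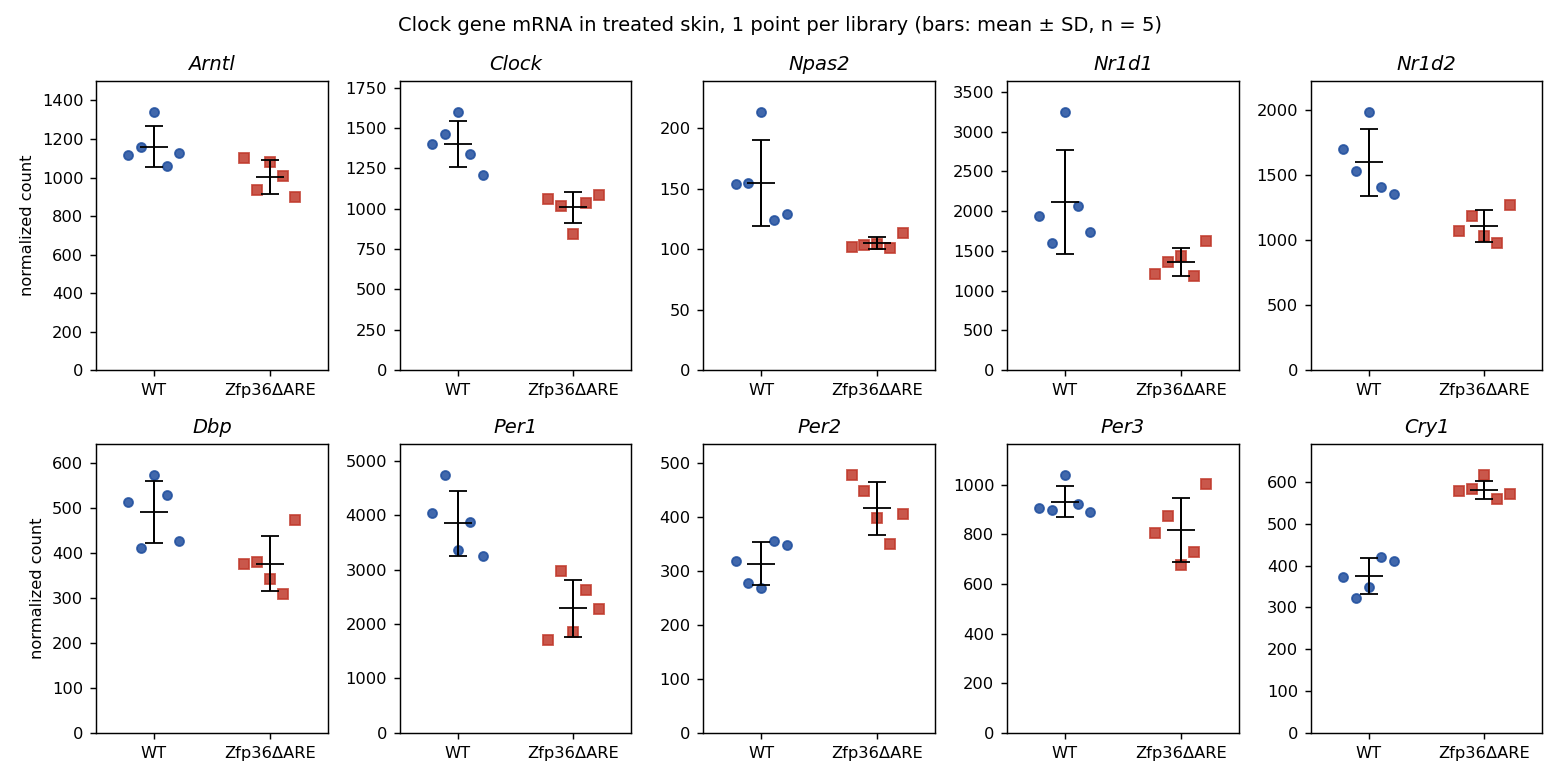
Normalized counts (y axis, from 0) of the 10 clock genes in the 5 WT (circles) and 5 Zfp36ΔARE (squares) libraries, 1 point per library, with the mean and SD of each group. Clock, Npas2, Per1 and Nr1d2 are lower in every Zfp36ΔARE library than in any WT library, Cry1 is higher in every one, and the other 5 genes overlap.

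The repressors of the PER and CRY families did not move in one direction. Per1 (chromosome 11, 69095108 to 69109965, plus strand) encodes a period protein that glucocorticoid and other signals also induce at once, apart from the clock. Its normalized counts were 4037, 4743, 3352, 3868 and 3243 in WT and 1711, 2969, 1854, 2625 and 2272 in Zfp36ΔARE replicates 1 to 5. All Zfp36ΔARE libraries lay below all WT libraries, with replicate 1 lowest and replicate 2 highest among them. Per1 fell 1.68-fold, the widest difference of the 10 genes in this fit, from 3848 ± 602 to 2286 ± 524 (log2 fold change -0.75 ± 0.16 (SE), edgeR adjusted p = 0.0095).

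Per2 (chromosome 1, 91415977 to 91459351, minus strand), which encodes the closest relative of PER1 in the repressor complex, went the other way. WT replicates 1 to 5 had 319.6, 278, 268, 356 and 349 normalized counts and Zfp36ΔARE replicates had 479, 448, 399, 351 and 406. The groups overlapped by 1 library, Zfp36ΔARE replicate 4, and the other 4 lay above all WT libraries. Per2 rose 1.33-fold (314 ± 39.99 against 417 ± 48.9, log2 fold change 0.41 ± 0.11 (SE), edgeR adjusted p = 0.022). This call was lost without Zfp36ΔARE replicate 1 or replicate 2, with an adjusted p of at most 0.053, and without both WT replicates 1 and 3 (0.091).

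Per3 (chromosome 4, 150997018 to 151044707, minus strand) encodes the third period protein, and its mRNA cycles in many tissues. Its normalized counts were 904, 897, 1039.6, 922 and 891 in WT and 805, 874, 678, 728 and 1003 in Zfp36ΔARE replicates 1 to 5. The WT libraries were close together apart from replicate 3, and replicate 5 was the one Zfp36ΔARE library inside the WT range. The difference did not pass the test (log2 fold change -0.19, 95% interval -0.41 to 0.039, edgeR adjusted p = 0.17). Among the 22 other settings it passed in 1, without Zfp36ΔARE replicate 5, at a log2 fold change of -0.28 and an adjusted p of 0.037.

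Cry1 (chromosome 10, 85131700 to 85185054, minus strand) encodes the cryptochrome that, bound to PER, shuts off CLOCK and BMAL1, and its mRNA peaks later than those of Nr1d1 and Dbp. The normalized counts in WT replicates 1 to 5 were 372, 321, 348, 421 and 412, and those in Zfp36ΔARE replicates were 578, 582, 617, 559 and 571. Every Zfp36ΔARE library was above every WT library, and they differed among themselves by 1.103-fold at most. Cry1 rose 1.55-fold, from 375 ± 42.1 to 582 ± 21.7 (log2 fold change 0.63 ± 0.084 (SE), edgeR adjusted p = 0.0040).

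The nuclear receptors of the second loop were both lower in Zfp36ΔARE skin. Nr1d1 (chromosome 11, 98767932 to 98775377, minus strand) had 1939, 1607, 3248, 2065 and 1742 normalized counts in WT and 1211, 1367, 1431, 1184 and 1625 in Zfp36ΔARE replicates 1 to 5. WT replicate 3 stood far above the rest, and Zfp36ΔARE replicate 5 lay just inside the WT range. Nr1d1 fell by 0.64 ± 0.18 on the log2 scale (SE; 2120 ± 655 against 1364 ± 179, edgeR adjusted p = 0.024). Without WT replicate 3 alone the log2 fold change was -0.43, and without WT replicates 1 and 3 it was -0.40, with an adjusted p of 0.049. The call was lost without Zfp36ΔARE replicate 1 or replicate 2, with an adjusted p of at most 0.052. Exons of Nr1d1 share 263 bases, 8.55% of its exon length, with Thra on the opposite strand, and the strand setting of the counting is not given in the sources used here. Thra, a thyroid hormone receptor gene, had 2296 and 2256 mean normalized counts in WT and Zfp36ΔARE skin (log2 fold change -0.025, edgeR adjusted p = 0.82).

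Nr1d2 (chromosome 14, 18204056 to 18239106, minus strand), the gene for REV-ERBβ, had 1704, 1531, 1985, 1410.2 and 1357 normalized counts in WT and 1073, 1189, 1030.0, 976 and 1271 in Zfp36ΔARE replicates 1 to 5. The groups did not overlap, and the same WT replicate 3 was highest. Nr1d2 fell by 0.53 ± 0.11 on the log2 scale (SE; 1597 ± 255 against 1108 ± 120, edgeR adjusted p = 0.0094).

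Dbp (chromosome 7, 45705100 to 45710203, plus strand) is the classic output gene of the clock, a PAR-bZIP transcription factor whose mRNA follows the activity of CLOCK and BMAL1 closely. WT replicates 1 to 5 had 512, 410.3, 574, 528 and 427 normalized counts, and Zfp36ΔARE replicates had 375, 380.2, 343, 308 and 472. Among the Zfp36ΔARE libraries 4 lay under the WT range and replicate 5 inside it. Dbp fell by 0.38 ± 0.13 on the log2 scale (SE; 490.2 ± 69.3 against 376 ± 61.1, edgeR adjusted p = 0.044), and 14 of 22 other settings lost this call, among them leaving out any one of WT replicates 1, 3 and 4 or Zfp36ΔARE replicates 1 to 4. Its exons share 539 bases, 18.0% of its exon length, with Sphk2 on the opposite strand, a sphingosine kinase gene that had 2148 and 2152 mean normalized counts in the groups (log2 fold change 0.0030, edgeR adjusted p = 0.97).

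**Figure D3:**
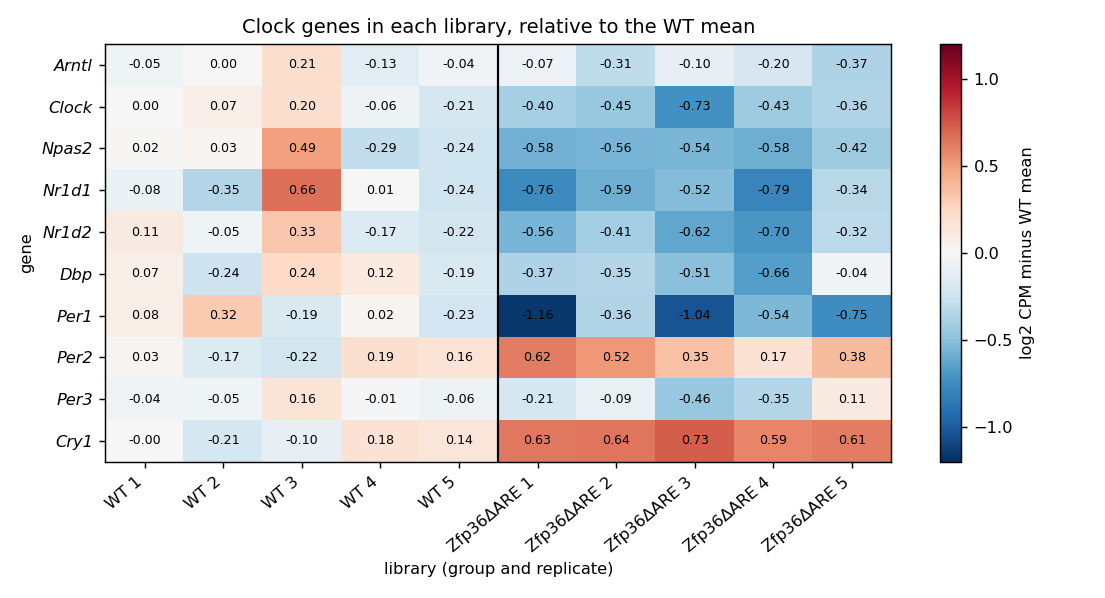
Log2 CPM of each clock gene (rows) in each library (columns) minus the mean of the 5 WT libraries, on a color scale from -1.2 (blue) to 1.2 (red). WT replicate 3 is the highest library for Arntl, Clock, Npas2, Nr1d1, Nr1d2, Dbp and Per3, and the Zfp36ΔARE columns are blue for most genes and red for Per2 and Cry1.

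WT replicate 3, which had the lowest hair shaft score (2.86) and the highest skeletal muscle score (11.6 in mean log2(CPM + 1), against 8.42 to 10.7 in the other 9 libraries), was the highest of the 10 libraries for 7 of the 10 genes. WT replicate 1, with the next lowest hair shaft score (5.38), lay within -0.082 to 0.11 of the WT mean in log2 CPM for all 10 genes. With the hair shaft score as a covariate, 0 of the 10 clock genes passed in edgeR (4 at an unadjusted p below 0.05, against 13.6% of all genes) and 13 of all 15543 genes did. The log2 fold change was then -0.18 for Nr1d1 and -0.19 for Npas2, against -0.83 for Per1 and 0.53 for Cry1. With the macrophage score instead, Clock was at -0.12, Npas2 at -0.057, Nr1d1 at -0.36, Per1 at -0.51 and Cry1 at 0.32. With the skeletal muscle score Clock was at -0.46, Per1 at -1.09, Per2 at 0.38 and Cry1 at 0.67. The same muscle fit put Nr1d1 at -0.081, Arntl at -0.060, Per3 at -0.12, Dbp at -0.15, Npas2 at -0.26 and Nr1d2 at -0.29. Again 0 of the 10 genes passed in edgeR with either score (0 and 3 at an unadjusted p below 0.05, against 1.29% and 16.6% of all genes). Within the 6 libraries without Y-linked counts, 5 WT against Zfp36ΔARE replicate 1, 0 clock genes passed in edgeR (5 at an unadjusted p below 0.05, against 15.7% of all genes) and 0 of all 16373 genes did, where the lone library was assumed to vary like WT. In that one library, 7 of the 10 genes lay below and 2 above the whole WT range, against 30.4% and 30.5% of all 15543 genes, with log2 fold changes of -1.17 for Per1 and 0.61 for Per2.

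**Figure D4:**
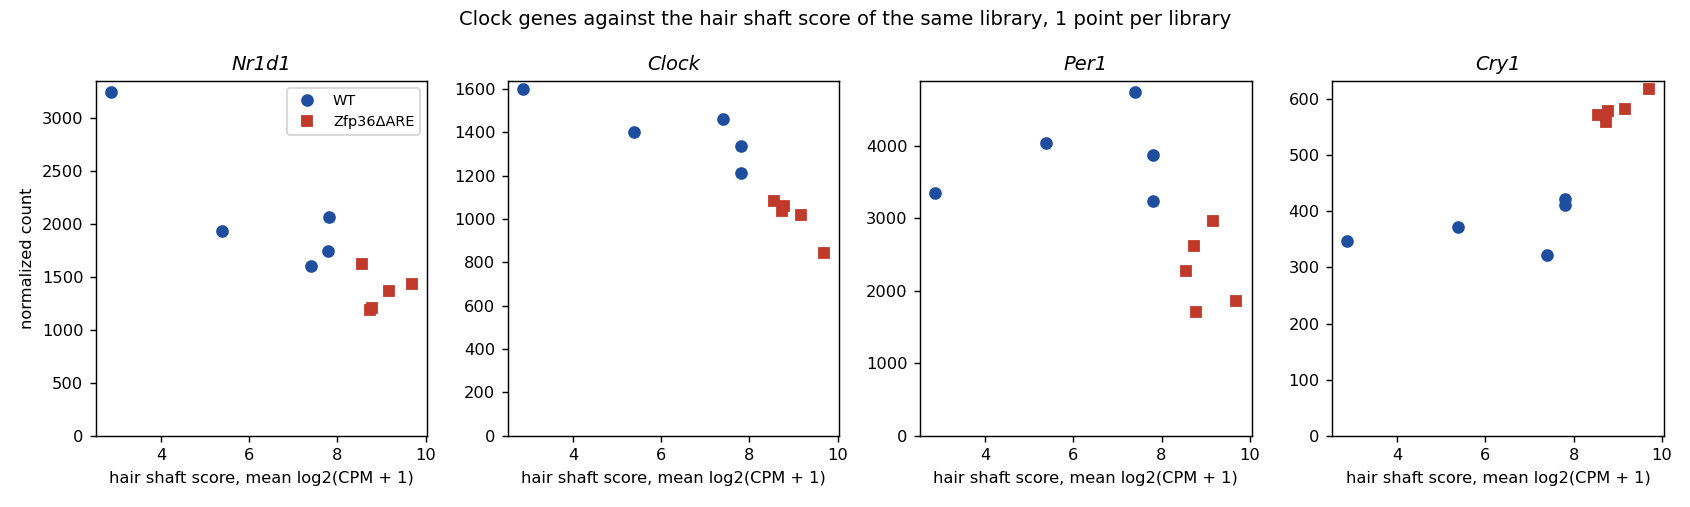
Normalized counts (y axis, from 0) of Nr1d1, Clock, Per1 and Cry1 against the hair shaft score of the same library (x axis, mean log2(CPM + 1) of 12 marker genes) in 5 WT (circles) and 5 Zfp36ΔARE (squares) libraries. All Zfp36ΔARE libraries lie at higher scores (8.56 to 9.70) than all WT libraries (2.86 to 7.81), so the score and the genotype do not overlap.

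The balance between activator genes and E-box targets was described by a phase index. It was the mean log2(CPM + 1) of the activators Arntl, Clock and Npas2 minus that of the E-box targets Nr1d1, Nr1d2, Dbp and Per3 in the same library. Per1, Per2 and Cry1, also E-box targets, were left out of the index. A sample taken when Arntl is high and Dbp is low has a high index, and a factor common to both arms drops out. The index was -0.78, -0.56, -0.82, -0.89 and -0.73 in WT replicates 1 to 5 and -0.60, -0.81, -0.66, -0.52 and -0.97 in Zfp36ΔARE replicates 1 to 5. The ranges overlapped almost throughout, and the highest and the lowest library were both Zfp36ΔARE. The group means were -0.76 ± 0.12 and -0.71 ± 0.18 (SD, n = 5), a difference of 0.043, which is less than either SD. Both arms were lower in Zfp36ΔARE skin, with mean differences of -0.37 for the activator arm and -0.41 for the E-box arm. With Per1 and Per2 added to the E-box arm, the difference of the index was -0.032. A change in the same direction in both arms cancels in the index, so the index does not show it. A change that moved the arms apart would alter the index, whose group means differed by 0.043. Whether clock phase differed between the groups was not tested, since the hour of sampling is unknown. The activator arm ran from 4.504 to 4.93 in WT and from 4.23 to 4.34 in Zfp36ΔARE libraries, and the E-box arm from 5.23 to 5.75 and from 4.80 to 5.26.

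Ratios of single genes within a library gave a different picture for Cry1 and Per2 than for Arntl and Dbp. The log2 ratio of Arntl to Dbp was 1.01 to 1.496 in WT and 0.93 to 1.71 in Zfp36ΔARE libraries, so the groups overlapped. Its means were 1.25 ± 0.20 and 1.43 ± 0.32 (SD, n = 5), a difference of 0.18. The log2 ratio of Arntl to Nr1d1 was -1.28 to -0.47 in WT and -0.86 to -0.14 in Zfp36ΔARE libraries, which also overlapped. Its means were -0.83 ± 0.31 and -0.44 ± 0.28 (SD, n = 5), a difference of 0.39, which is more than either SD. The log2 ratio of Cry1 to Nr1d1 was -3.22 to -2.08 in WT and -1.51 to -1.07 in Zfp36ΔARE libraries, with no overlap. These ratios use the same genes as the fits above and are descriptions with no test. The log2 ratio of Cry1 to Arntl ran from -1.95 to -1.33 and from -0.93 to -0.65, and that of Per2 to Per1 from -4.09 to -3.22 and from -2.90 to -1.84, again with no overlap. The ratios of Arntl to Dbp and to Nr1d1 thus overlapped between the groups, with higher means in Zfp36ΔARE skin. Those of Cry1 to Nr1d1 and Arntl, and of Per2 to Per1, did not overlap.

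**Figure D5:**
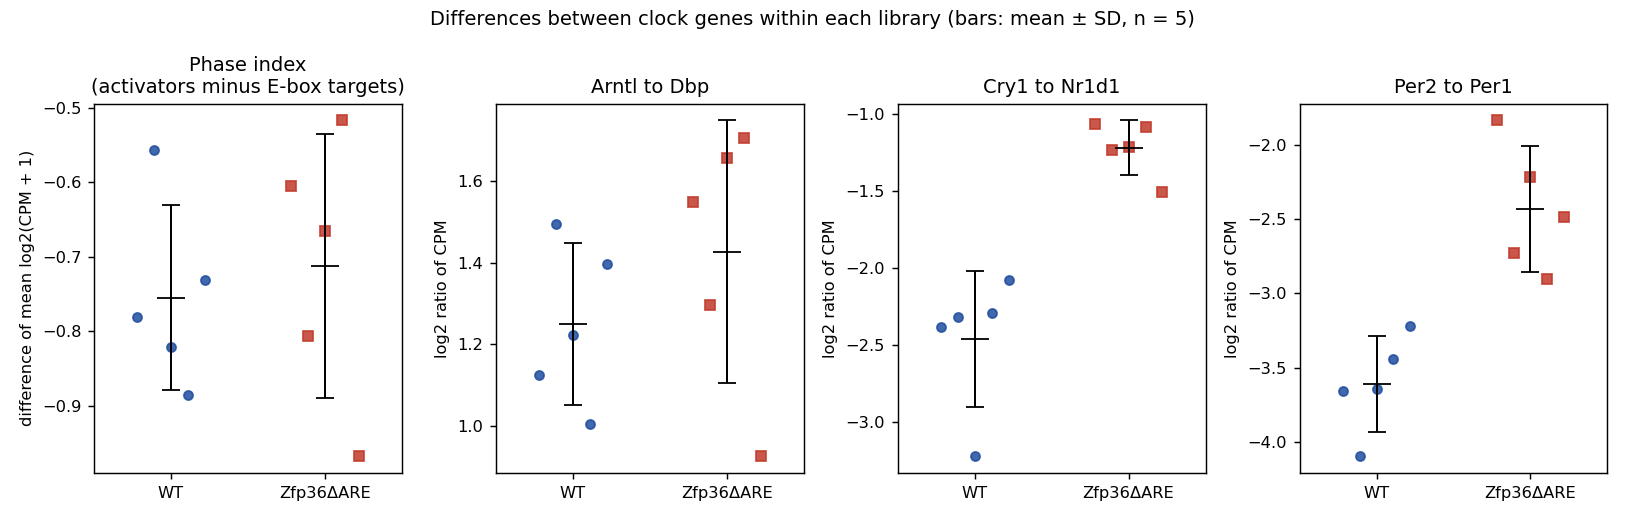
The phase index (difference of mean log2(CPM + 1)) and 3 log2 ratios of CPM within each library (y axes) for 5 WT (circles) and 5 Zfp36ΔARE (squares) libraries, with the mean and SD of each group. The index and the ratio of Arntl to Dbp overlap between the groups, whereas the ratios of Cry1 to Nr1d1 and of Per2 to Per1 do not.

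Because clock transcripts change with the hour, the spread of the 10 genes within a group was ranked among that of all genes. Within a group the highest library exceeded the lowest by 1.103-fold (Cry1 in Zfp36ΔARE) to 2.02-fold (Nr1d1 in WT). The SD of log2(CPM + 1) of the 10 genes stood at a median percentile of 52.6 among all genes tested in WT and 54.0 in Zfp36ΔARE skin, and 5 and 6 of the 10 lay above the median gene. Nr1d1 in WT (percentile 87.0) and Per1 in Zfp36ΔARE skin (88.7) were the most spread of the 10, and Cry1 (4.98) and Npas2 (5.53) in Zfp36ΔARE skin the least. The collection time of the libraries was not tested by this ranking, since the hour of each is unknown.

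The 4 E-box targets of the index, Nr1d1, Nr1d2, Dbp and Per3, varied together across libraries once group means were removed, whereas Per1, Per2 and Cry1, also E-box targets, correlated with them less. Over the 10 libraries, the deviations of Nr1d1 correlated with those of Nr1d2 at r = 0.77 and of Dbp at r = 0.77, and Dbp with Per3 at r = 0.81. With these same 4 genes, Per1 had r from -0.26 to 0.14, Per2 from -0.29 to 0.17 and Cry1 from -0.47 to 0.084. Npas2, an activator, also moved with Nr1d2 (r = 0.85) and Nr1d1 (r = 0.75), whereas Arntl and Dbp had r = -0.14. Per2 and Cry1, both higher in Zfp36ΔARE skin, had r = 0.69. All of these points share the same libraries and scaling, and WT replicate 3 is extreme in many of these genes.

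Of 25 other clock genes, 5 were higher and 2 lower in Zfp36ΔARE skin at an adjusted p below 0.05 and 18 did not pass, with a median log2 fold change of 0.077. The share called in either direction, 28%, was below the 34.3% of all genes. Nfil3, which encodes a repressor at the D-boxes that DBP activates, had 1220.3, 1475, 719.9, 1384 and 1237 normalized counts in WT and 2105, 2056, 1993, 1877 and 1495 in Zfp36ΔARE replicates 1 to 5. The groups did not overlap, and WT replicate 3 was the lowest library. Nfil3 rose 1.58-fold (log2 fold change 0.66 ± 0.17 (SE), edgeR adjusted p = 0.018), so its log2 ratio to Dbp was 0.33 to 1.85 in WT and 1.66 to 2.61 in Zfp36ΔARE libraries. The other PAR-bZIP genes, relatives of Dbp, did not pass. Tef had a log2 fold change of -0.27 (edgeR adjusted p = 0.073) and Hlf of -0.34 (0.13).

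Rora, which encodes an activator at the elements that REV-ERB proteins repress, had 3261, 3347, 4134, 3277 and 3154 normalized counts in WT and 2281, 2512, 2152, 2608 and 3334 in Zfp36ΔARE replicates 1 to 5. Only replicate 5 of Zfp36ΔARE skin reached the WT range, and Rora fell by 0.41 ± 0.12 on the log2 scale (SE, edgeR adjusted p = 0.026). Among genes that REV-ERB proteins are known to repress, Cry1 and Nfil3 were higher, Npas2 was lower and Arntl was not called. Nr1d1, Nr1d2 and Rora were lower, and an effect of their proteins on these genes was not tested.

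Among further repressors, none passed. Cry2, for the second cryptochrome, had a log2 fold change of -0.12 (95% interval -0.27 to 0.028) where Cry1 had 0.63. Ciart, for a CLOCK and BMAL1 inhibitor, had -0.089, and Bhlhe40 and Bhlhe41, for proteins that compete at E-boxes, had 0.16 and 0.082. Regulators of protein stability that passed were Csnk1e, a kinase of PER proteins, at 0.64 (edgeR adjusted p = 0.014), Prkaa1, a subunit of the energy-sensing kinase AMPK, at 0.29, Usp2, a deubiquitinase, at 0.28, and Btrc, a ubiquitin ligase subunit that directs PER to decay, at -0.46 (0.020). Skp1a, a shared ligase subunit named here after its value was seen, was at 0.24. Ddb1, Nono and Csnk1d, the genes with the most counts that did not pass, were at 0.070, 0.11 and 0.20.

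Transcripts known to cycle downstream of the clock in many tissues were also counted, from a list put together from general knowledge. Of 19 tested, 8 were lower, 1 was higher and 10 did not pass, with a median log2 fold change of -0.20. The share called in either direction was 47.4%, against 34.3% of all genes, of which 19.1% were lower and 15.3% higher in separate counts over all genes. The largest decreases of those that passed were Ppp1r3c, a glycogen-targeting phosphatase subunit (-1.16), Fmo2, a monooxygenase (-0.87), Tns2, a tensin (-0.85), Gys1, muscle glycogen synthase (-0.76), and Tspan4, a tetraspanin (-0.49). Hsph1, a heat shock protein gene, rose by 0.44 on the log2 scale. Hspa8, Cdkn1a and Mapk14, the most abundant that did not pass, were at 0.23, 0.26 and -0.088. WT replicate 3 had the most counts of Ppp1r3c and Gys1 as well as the highest skeletal muscle score.

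Because Per1 also answers to glucocorticoid, which has its own daily rise and stress response, 12 glucocorticoid-induced genes were set beside it. Of these, 5 were lower, 0 were higher and 7 did not pass (at an unadjusted p below 0.05 in the same edgeR fit, 7 of the 12, against the 47.1% of all genes), with a median log2 fold change of -0.47. The share called was 41.7%, all of it lower, against 34.3% of all genes in either direction and 19.1% lower. Tsc22d3, which encodes the glucocorticoid-induced leucine zipper protein, had 5897, 4508, 5328, 3904 and 3231 normalized counts in WT and 1392, 2800.1, 1719.65, 1784 and 2571 in Zfp36ΔARE replicates 1 to 5. The groups did not overlap. Zfp36ΔARE replicate 1 was lowest and replicate 2 highest of its group, the order that Per1 also had, but the other 4 genes called did not share it (Fkbp5 was lowest in replicate 3 and highest in replicate 5, Dusp1 lowest in replicate 5 and highest in replicate 4, and Klf9 and Sult1a1 lowest in replicate 1 and highest in replicate 3). Tsc22d3 fell by 1.16 ± 0.22 on the log2 scale (SE, edgeR adjusted p = 0.0072). Klf9, a transcription factor gene, was at -0.85 (0.0053), Dusp1, a MAP kinase phosphatase gene, at -0.75 (0.026), Fkbp5, a co-chaperone of the receptor, at -0.48 (0.015), and Sult1a1, a sulfotransferase gene, at -1.16 (0.0095). Mt2, Sgk1 and Errfi1, the most abundant that did not pass, were at 0.37, -0.16 and -0.22. Pdk4, named here after its value was seen, is counted both in this list and among the clock output genes. Its log2 fold change, -1.63, was the lowest of either list, and it did not pass (edgeR adjusted p = 0.052). WT replicate 3 had 10257 normalized counts of Pdk4, against 1633 to 4290 in the other WT libraries. Whether glucocorticoid levels differed between the mice was not tested.

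Of 12 temperature-responsive and immediate early genes, 2 were higher, 0 were lower and 10 did not pass (4 at an unadjusted p below 0.05 in the same edgeR fit). Both the 16.7% called and the 4 of 12 were smaller shares than the 34.3% and 47.1% of all genes in either direction. Of all genes, 15.3% were higher. The median log2 fold change of the 12 was 0.27. Hspb1 and Hsp90aa1, both for heat shock proteins, rose by 0.54 and 0.41 on the log2 scale. Rbm3, a cold-inducible RNA-binding protein gene, was at 0.37 (edgeR adjusted p = 0.0503), and Egr1 and Junb, immediate early genes, were at 0.25 and 0.46 and did not pass. The rest, named here after their values were seen, did not pass either. Cirbp, Fos and Atf3 were at -0.052, -0.15 and -0.39, and Fosb, Ier2, Hspa1a and Hspa1b at 0.015, 0.28, 0.23 and 0.32.

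TTP binds AU-rich elements, whose core is ATTTA, and the genes were therefore looked at for it. In the annotated 3′-UTR, ATTTA occurred in 7 of the 10 clock genes and in 68.9% of 14401 genes tested that had a 3′-UTR. Clock held 20 matches in 6831 bases, Nr1d2 held 6 in 2631 and Nr1d1 held 2 in 288, whereas Arntl, Npas2 and Per1 held 0. Cry1, which was higher, held 3 in 612 bases, and Per2, also higher, held 1 in 1889. Genes lower in Zfp36ΔARE skin included ones with many matches to ATTTA, such as Clock with its long 3′-UTR, and ones with none, such as Per1 and Npas2. The longer motif TATTTAT occurred in 3 of the 10 genes, against 29.5% of all genes tested that had a 3′-UTR. These were Clock, Nr1d1 and Nr1d2, all lower. It was absent from the other lower genes, Npas2, Per1 and Dbp, and from Cry1 and Per2. Whether TTP acts on any of these mRNAs was not tested.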

How the data were processed

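Full-thickness skin RNA from 5 WT and 5 Zfp36ΔARE mice was sequenced in 10 libraries of 19595035 to 36419573 counts. The authors dropped reads whose mean quality was under 20, mapped the remainder to mm10 using STAR 2.5.2b, and deposited raw fragment counts per gene from featureCounts (Subread 1.5.0-p1). Strand settings and the treatment of fragments matching several genes are not given in the sources used here.

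Counts of all 24454 rows, less 2 without a gene name (7.38e-05% of counts), were scaled by TMM, filtered with filterByExpr and tested with edgeR 4.0.16 (quasi-likelihood, genotype only) in R 4.3.3, with Benjamini-Hochberg adjustment over 15543 genes. A normalized count is the scaled count at the mean library size. Lists were described by counts and medians. The scripts were tested on simulated data. Alternatives were DESeq2 1.42.0, limma-voom 3.58.1, other scalings and filters, a replicate block, covariates and left-out libraries; the skeletal muscle and macrophage covariates were added after the data were seen.

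Members and lists were chosen with earlier results of these data known. Named genes were all members, a set of core clock genes, up to 6 called genes with the largest change and up to 3 not called with the most counts per list, and the 5 genes at either end of the likeness ranking. Gene positions came from GENCODE on GRCm38 and promoters from RefSeq. One of the listed output genes was not matched by symbol, and 1 of the other clock genes is counted in its list but not reported singly here. The p-values set the difference between the groups against the variation between these libraries, and they do not separate genotype from sex.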

Additional observations from a re-analysis of the deposited data

Results flagged for a closer look

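Values that stood apart within a group of 5 were sought in 22 groups, by the gap to the nearest library as a share of the group's range, with a critical value of 0.71. Chance alone would mark about 1 in 20 groups. In WT, replicate 3 stood high in Per3 (1039.6 against 891 to 922 normalized counts in the other 4, a ratio of 0.794) and in Nr1d1 (3248 against 1607 to 2065, a ratio of 0.721). In Zfp36ΔARE skin, replicate 3 stood low in Clock (843 against 1019 to 1084, a ratio of 0.732) and replicate 5 stood high in Npas2 (113 against 101 to 104, a ratio of 0.761). These are given as values, and their cause was not tested.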

How the results depend on the processing

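Of 220 values, the log2 fold changes of the 10 clock genes under 22 alternatives each, 168 kept their direction and their side of the threshold, 49 kept their direction and lost the call, 2 gained it and 1 reversed. DESeq2, limma-voom, DESeq2's size factors and a minimum of 10 counts called the same 8 genes. Upper-quartile scaling added Arntl, and no filter lost Dbp. With a hair shaft, skeletal muscle or macrophage score as a covariate, or with libraries without Y-linked counts alone, 0 clock genes and 0 other clock genes passed in either direction, while 13, 2, 0 and 0 of all genes did. At an unadjusted p below 0.05 in the same edgeR fits, 4, 3, 0 and 5 of the 10 passed, against 13.6%, 16.6%, 1.29% and 15.7% of all genes. Per2 reversed, to -0.024, with the macrophage score. In the libraries without Y-linked counts 7 genes lay below and 2 above the WT range, against 30.4% and 30.5% of all genes. The cause of these changes was not tested. The hair shaft and macrophage scores did not overlap between the groups.

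With WT replicates 1 and 3 both left out, 4 genes were lower and 1 higher, and of the other clock genes 0 were lower and 3 higher. In that fit 15.9% of all genes were called in either direction, against 34.3% with all 10 libraries. Leaving out 1 library at a time gave 4 to 7 lower and 1 to 2 higher, and 0 to 3 lower and 4 to 7 higher among the other clock genes. The share of all genes called in these fits ran from 21.3% to 34.3%. Without overlap, 4 to 7 of the 10 genes lay below and 1 to 2 above. With all 10 libraries the shares of all genes without overlap were 11.9% below and 11.2% above. The difference of the phase index ran from -0.032 to 0.16 over its 16 alternatives.

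With a replicate block, 4 clock genes were lower and 1 higher, and 0 other clock genes were lower and 3 higher. In all, 2740 genes (17.6%) were called in that fit. Deviations of same-numbered libraries correlated at -0.19 to 0.085, and 0 of 5 numbers matched best with their own, so the numbers were not taken as pairs. The 10 genes had 76 to 5872 counts per library.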

Other observations

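The genes whose deviations from the group means were most like those of the phase index across the 10 libraries, among 14430 genes with a mean of at least 1 CPM, were Timm22, a mitochondrial import gene (r = 0.92), Fbxl15 (0.91), Spata2l (0.91), Snx9 (0.89) and Zfp212 (0.89). Those most opposed were Mnt (-0.92), Camkk1 (-0.92), Pram1 (-0.92), Rnf168 (-0.92) and Tvp23b (-0.91). Of the other clock genes, Tef, a PAR-bZIP relative of Dbp, had r = -0.77 and ranked 84 from the bottom, and Cry2 had r = -0.67 and ranked 304 from the bottom. With WT replicates 1 and 3 left out, r was -0.90 for Tef and -0.72 for Cry2. These correlations share their libraries and scaling and are descriptions. The genes at either end are the extremes of 14430 genes over only 10 libraries, so high r can arise by chance. A link of these genes to clock phase was not tested.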
